A study of Mus musculus with 12 samples.

Results

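The genes described here are 44 genes that act when cells copy their DNA and divide. Of these, 32 act in mitosis and 12 in DNA replication. Members were the listed genes whose name, or an older name such as Cdc2a for Cdk1, stood beside a transcript probe on the array. This rule used no expression value, but the list was drawn up with earlier results of these data known. All 44 were found, out of 27666 genes by name, and they had 70 of the 41174 transcript probes. Of the 44, 43 passed the filter on dim signals, which asked for a signal well above background in all 3 hearts of at least 1 group. The exception was Ttk, a spindle checkpoint kinase, whose spot was well above background on 2 of 12 arrays. The 43 comprised 31 mitotic and 12 replication genes. Of them, 39 were well above background on all 12 arrays. Ccnb1, Aurkb, Bub1 and Kif11 were so on 9 to 11 arrays, the gaps lying in 2-month hearts. Ccnb1 and Kif11 passed the filter only through the 1-month groups, so their lower 2-month levels are no support for a fall with age.

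RNA came from whole hearts of male C57BL/6 mice, with 3 hearts in each of 4 groups: cardioGRMRdKO at 2 months, dflox at 2 months, cardioGRMRdKO at 1 month and dflox at 1 month. CardioGRMRdKO mice, called knockout here, carry floxed alleles of the glucocorticoid receptor (GR) and the mineralocorticoid receptor (MR) together with a Cre transgene under the αMHC promoter, which acts in cardiomyocytes. The dflox mice are littermates with the same floxed alleles and no Cre, so loss of the receptors and presence of Cre cannot be told apart. Other cells of the heart keep both receptors by this design. Each heart was read on 1 single-colour Agilent array, and levels below are log2 intensities relative to the 75th percentile of their array, so that a level of 0 equals that percentile. Differences are log2 differences tested with limma over 18257 genes. Called genes are those with an adjusted p (Benjamini-Hochberg) under 0.05.

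As background, a dividing cell first loads the MCM helicase onto DNA with the help of Cdc6 and Cdt1, copies the genome with Pcna as the sliding clamp of the polymerase, and makes nucleotides with Rrm2, Tyms and Tk1. Mitosis then runs on Cdk1 with its cyclins, on the Polo and Aurora kinases, on kinesins that build the spindle, and on the anaphase-promoting complex, which Cdc20 activates and for which Ube2c supplies ubiquitin. Most rodent cardiomyocytes leave the cell cycle soon after birth, while fibroblasts, endothelial cells and macrophages of the heart go on dividing at a low rate. Whole-heart RNA does not separate these sources: fewer dividing cells and less RNA per dividing cell cannot be told apart.

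The probes behind the differences described below are shown first, because a gene's value rests on a single stretch of transcript. Probe positions are on mouse build mm7, which the file headers name. Mcm2, Ube2c and Nek2 had 1 probe each, and the pair of Cdk1 probes is given because their age differences had opposite signs.
Mcm2 probe A_51_P158210, chr6:88958718-88958777, minus strand: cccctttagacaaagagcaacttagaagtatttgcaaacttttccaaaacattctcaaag
Ube2c probe A_51_P451151, chr2:164513170-164513229, plus strand: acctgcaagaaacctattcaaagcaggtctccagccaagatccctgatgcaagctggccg
Nek2 probe A_51_P501018, chr1:191385389-191385448, plus strand: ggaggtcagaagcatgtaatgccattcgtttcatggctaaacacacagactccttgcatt
Cdk1 probe A_51_P450033, chr10:68946079-68948488, minus strand: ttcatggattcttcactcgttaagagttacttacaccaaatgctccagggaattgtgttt
Cdk1 probe A_52_P339954, chr10:68940820-68940879, minus strand: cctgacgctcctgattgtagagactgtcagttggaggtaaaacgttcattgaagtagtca
The coordinates of the brighter Cdk1 probe, A_51_P450033, span more than its 60 bases. It represents Cdk1 in what follows.

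Mitotic and replication genes are known to carry different promoter elements. The CHR element, which the DREAM and MuvB complexes bind, is typical of mitotic genes, the CCAAT box binds NF-Y, and E2F sites are typical of replication genes. RefSeq promoter sequences (build GRCm38.p6, 250 bases before to 50 bases after the gene start) were matched for 38 of the 44 members, 3 of which have 2 windows. Tpx2, Mcm4, Aurkb, Ccna2, Foxm1 and Kif20a had no window. Both strands were searched for TTTGAA and TTCGAA (CHR), for TTTCCCGC, TTTGGCGC, TTTCGCGC and TTTGCCGC (E2F) and for CCAAT. The second CHR form is its own reverse complement and was counted once. Mitotic windows held a CHR in 23 of 29 cases (79.3%) and replication windows in 2 of 12 (16.7%), against 19.2% of all 32851 windows. An E2F site was found in 1 of 29 mitotic windows (3.45%), that of Cdk1, and in 6 of 12 replication windows, against 2.26% of all windows. CCAAT was found in 27 of 29 mitotic windows (93.1%) and 8 of 12 replication windows (66.7%), against 37.4% of all. A match is a description of the letters and not evidence of binding, and short motifs also occur by the letter content of a window.
Promoters of 3 replication genes and 3 mitotic genes are shown: Mcm5 and Mcm6 as examples with E2F sites, Cdc20 and Plk1 as examples with a CHR, and Mcm2 and Ube2c because they were called at 2 months. Capitals mark E2F sites in Mcm5 and Mcm6, and the CHR in Mcm2, Ube2c, Cdc20 and Plk1.
Mcm5 promoter, chr8:75109259-75109558, plus strand: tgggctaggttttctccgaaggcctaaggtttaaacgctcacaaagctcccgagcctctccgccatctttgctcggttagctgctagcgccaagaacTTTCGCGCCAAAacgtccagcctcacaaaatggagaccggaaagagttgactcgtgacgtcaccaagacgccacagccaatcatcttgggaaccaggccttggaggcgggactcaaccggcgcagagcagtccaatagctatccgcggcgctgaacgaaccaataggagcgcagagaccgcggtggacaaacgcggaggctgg
Mcm6 promoter, chr1:128359656-128359955, minus strand: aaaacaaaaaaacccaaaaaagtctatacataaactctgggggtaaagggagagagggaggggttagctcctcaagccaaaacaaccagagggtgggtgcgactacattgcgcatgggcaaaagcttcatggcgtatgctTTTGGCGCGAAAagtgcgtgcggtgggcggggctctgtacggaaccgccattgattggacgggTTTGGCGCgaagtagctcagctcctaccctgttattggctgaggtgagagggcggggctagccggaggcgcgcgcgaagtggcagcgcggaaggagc
Mcm2 promoter, chr6:88898731-88899030, minus strand: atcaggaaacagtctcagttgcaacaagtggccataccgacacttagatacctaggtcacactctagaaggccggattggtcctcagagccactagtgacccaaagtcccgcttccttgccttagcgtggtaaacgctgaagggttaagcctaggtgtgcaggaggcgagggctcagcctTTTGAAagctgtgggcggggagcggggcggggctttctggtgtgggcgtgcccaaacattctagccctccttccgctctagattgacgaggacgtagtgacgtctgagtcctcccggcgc
Ube2c promoter, chr2:164769679-164769978, plus strand: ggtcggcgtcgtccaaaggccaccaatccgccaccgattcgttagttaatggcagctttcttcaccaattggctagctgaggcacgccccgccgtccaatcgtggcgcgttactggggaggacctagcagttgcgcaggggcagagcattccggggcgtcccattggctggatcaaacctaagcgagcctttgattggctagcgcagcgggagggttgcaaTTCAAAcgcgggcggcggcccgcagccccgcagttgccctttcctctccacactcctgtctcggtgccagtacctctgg
Cdc20 promoter, chr4:118437294-118437593, minus strand: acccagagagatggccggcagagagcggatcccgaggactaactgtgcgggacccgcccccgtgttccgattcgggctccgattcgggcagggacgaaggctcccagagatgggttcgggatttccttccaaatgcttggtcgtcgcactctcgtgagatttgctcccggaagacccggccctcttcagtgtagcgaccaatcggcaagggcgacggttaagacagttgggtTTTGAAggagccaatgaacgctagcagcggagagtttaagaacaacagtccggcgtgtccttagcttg
Plk1 promoter, chr7:122159185-122159484, plus strand: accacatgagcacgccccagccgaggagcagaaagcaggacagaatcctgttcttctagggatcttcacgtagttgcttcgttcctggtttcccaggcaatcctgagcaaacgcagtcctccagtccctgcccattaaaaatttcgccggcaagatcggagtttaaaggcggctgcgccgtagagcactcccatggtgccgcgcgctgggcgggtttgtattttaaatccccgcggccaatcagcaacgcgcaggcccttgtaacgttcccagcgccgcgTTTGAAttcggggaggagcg
In Mcm5 a pair of E2F matches on opposite strands overlap, starting at −153 and −149 from the gene start, and Mcm6 has the same arrangement at −110 and −106 with a further match at −47. Mcm2 held no E2F match in this window and a CHR at −70. The CHR lay at −18 in Cdc20, at −29 in Ube2c and at 31 bases into the transcript in Plk1. Of the 33 CHR matches in mitotic windows, 24 lay between 100 bases before the start and the end of the window. Matches were counted per window, and the 2 windows of Ect2 and of Prc1 hold the same sites at shifted positions. By gene, 21 of 27 mitotic genes held a CHR. Overlap between different motifs was limited to a CHR with a CCAAT in Cdca8 and an E2F site with a CCAAT in Mcm7.

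**Figure D1:**
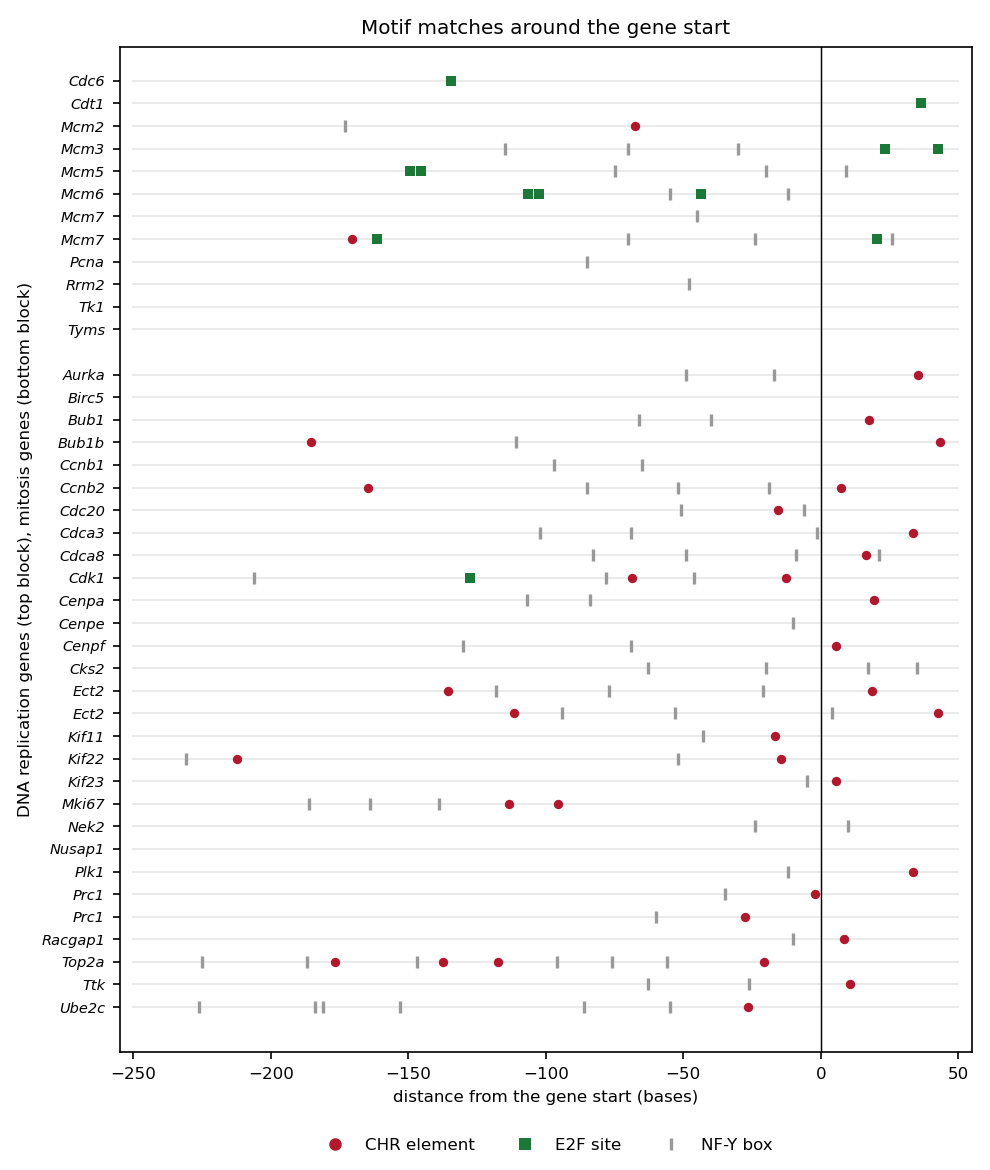
Positions of motif matches in the RefSeq promoter windows of 38 members, 1 row per window, as the distance in bases from the gene start (x axis, 0 = start). Red circles are CHR elements, green squares E2F sites and grey ticks NF-Y boxes (CCAAT); replication genes form the top block, where 6 of 12 windows hold an E2F site, and mitotic genes the bottom block, where 23 of 29 windows hold a CHR.

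Several features of the hearts bear on all comparisons. The arrays had 63.7% to 71.9% of transcript spots well above background, lay on 3 slides of 4 arrays, and at 1 month every knockout array had an inner place and every dflox array an outer place on its slide. All 6 cardiomyocyte markers passed the filter, and the mean of their levels was 5.85 to 6.57 in knockout against 6.58 to 6.62 in dflox hearts at 2 months. The 9 macrophage markers averaged 1.52 to 1.74 in knockout against 1.32 to 1.41 in dflox hearts at 2 months, and 1.76 to 1.86 in knockout against 1.45 to 1.64 in dflox hearts at 1 month. The genotypes did not overlap at either age. Of other dividing cells a heart sample can carry, thymocyte and B cell genes were dim: Rag1 and Ptcra did not pass the filter and Pax5 was well above background on 0 of 12 arrays. Markers of airway epithelium differed most between hearts, averaging −3.29 to −1.33 in knockout against 2.10 to 3.31 in dflox hearts at 1 month, and −3.46 to 3.40 in knockout against −3.24 to 3.67 in dflox hearts at 2 months. The part of these cells in the results below was not tested.

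With age, mitotic genes were lower in both genotypes. In dflox hearts the median log2 difference, 2 months minus 1 month, was −1.48 over the 31 mitotic genes, beside 0.05 over all genes tested, and 29 of the 31 were below 0. In knockout hearts the median was −1.08, beside −0.02 over all genes, with 30 of 31 below 0. Ccnb1 and Kif11, which passed the filter only through the 1-month groups, are in these counts and medians and are no support for a fall there. The call reached 6 mitotic genes in dflox hearts, all lower, whereas 0.246% of all genes were called lower in that comparison. In knockout hearts limma called 0 of the 43 members, against 0.378% of all genes in either direction. At an unadjusted p under 0.05 in either direction stood 40 members in dflox hearts and 29 in knockout hearts. These were 93.0% and 67.4% of those tested, against 14.1% and 12.4% of all genes. The 40 include Cenpa, which was higher at 2 months (0.48), and also Ccnb1 and Kif11. The 29 include Ccnb1. The smallest adjusted p in knockout hearts was that of Ccnb2, a mitotic B-type cyclin, at −1.55 (SE 0.315, adjusted p = 0.0811).

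**Figure D2:**
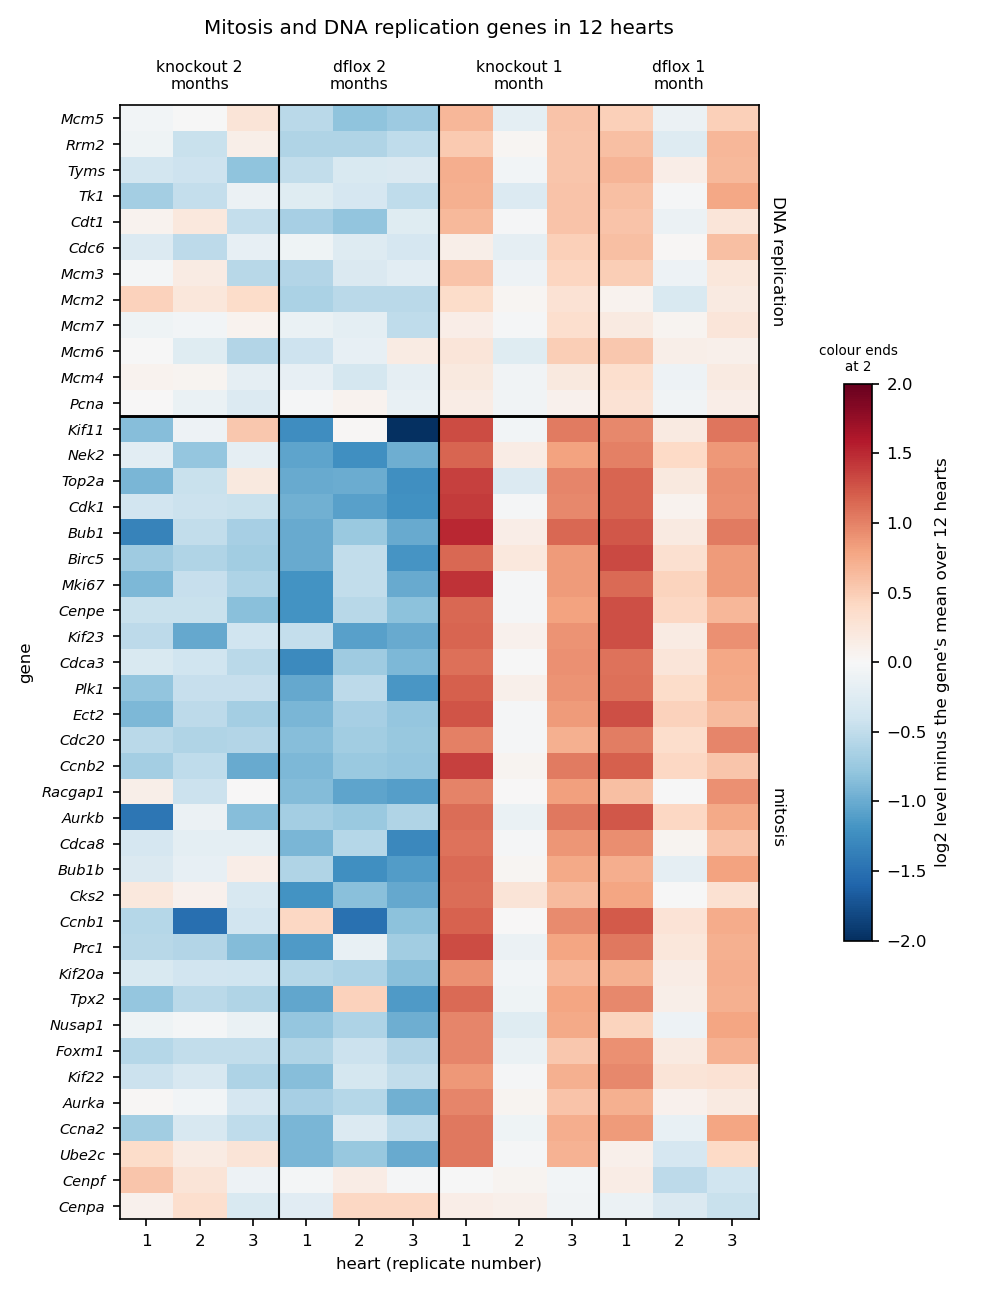
Level of 43 members in 12 hearts as the log2 level minus the gene's own mean over all hearts (colour scale, ending at −2 and 2). Columns are hearts by group and rows are genes, replication genes above the line and mitotic genes below it; in each block the 2-month hearts are bluer than the 1-month hearts, the mitotic block more so, and replicate 2 is the palest heart in both 1-month groups.

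Nek2, a kinase that separates the centrosomes, was at −4.06, −4.62 and −4.03 in knockout against −4.90, −5.08 and −4.83 in dflox hearts at 2 months, and at −2.68, −3.70 and −3.05 in knockout against −2.84, −3.45 and −2.98 in dflox hearts at 1 month. In dflox hearts it fell by 1.85 on the log2 scale (SE 0.265, 3.59-fold lower, adjusted p = 0.0203), and the ages did not overlap in either genotype. Cdc20, the activator of the anaphase-promoting complex (chr4:117809370-117809429), was at −0.47, −0.53 and −0.52 in knockout against −0.79, −0.62 and −0.69 in dflox hearts at 2 months, and at 1.07, 0.04 and 0.78 in knockout against 1.10, 0.42 and 1.04 in dflox hearts at 1 month. In dflox hearts it fell by 1.55 on the log2 scale (SE 0.248, 2.93-fold lower, adjusted p = 0.0268). All 6 of its 1-month values lay above all 6 of its 2-month values.

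Birc5 encodes survivin, a subunit of the chromosomal passenger complex (chr11:117964690-117964749). Its level was −0.91, −0.80 and −0.89 in knockout against −1.21, −0.69 and −1.38 in dflox hearts at 2 months, and 0.95, 0.01 and 0.65 in knockout against 1.13, 0.12 and 0.65 in dflox hearts at 1 month. In dflox hearts it fell by 1.73 on the log2 scale (SE 0.295, adjusted p = 0.0381), and the genotypes overlapped at both ages. Plk1, the Polo-like kinase of mitotic entry (chr7:118093971-118094030), was at −2.25, −1.92 and −1.93 in knockout against −2.49, −1.99 and −2.62 in dflox hearts at 2 months, and at −0.26, −1.36 and −0.57 in knockout against −0.36, −1.10 and −0.70 in dflox hearts at 1 month. In dflox hearts it fell by 1.64 on the log2 scale (SE 0.291, adjusted p = 0.0448), again with no overlap of the ages in either genotype.

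Cdca3, which acts at mitotic entry (chr6:124859606-124859665), was at −2.43, −2.52 and −2.66 in knockout against −3.40, −2.84 and −3.02 in dflox hearts at 2 months, and at −1.02, −2.14 and −1.21 in knockout against −1.05, −1.89 and −1.36 in dflox hearts at 1 month. In dflox hearts it fell by 1.65 on the log2 scale (SE 0.298, adjusted p = 0.0472). A dimmer Cdca3 probe gave −1.29 there. Cks2, a small protein that binds cyclin-dependent kinases (chr13:50684621-50684680), was at −0.20, −0.33 and −0.73 in knockout against −1.61, −1.25 and −1.44 in dflox hearts at 2 months, and at 0.70, −0.15 and 0.22 in knockout against 0.37, −0.42 and −0.11 in dflox hearts at 1 month. In dflox hearts it fell by 1.38 on the log2 scale (SE 0.253, adjusted p = 0.0478), while in knockout hearts the 2 ages were 0.67 apart and did not pass (adjusted p = 0.303). In knockout hearts the other called genes gave −1.09 for Nek2, −1.14 for Cdc20, −1.41 for Birc5, −1.30 for Plk1 and −1.08 for Cdca3, with adjusted p between 0.0888 for Birc5 and 0.16 for Cdca3.

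The best known proliferation markers had differences below 0 without passing. Mki67, whose product coats mitotic chromosomes, was at −0.56, −0.12 and −0.28 in knockout against −0.86, −0.15 and −0.66 in dflox hearts at 2 months, and at 1.78, 0.32 and 1.19 in knockout against 1.47, 0.79 and 1.19 in dflox hearts at 1 month. The age difference was −1.41 in knockout hearts (adjusted p = 0.115) and −1.71 in dflox hearts (adjusted p = 0.0549). Cdk1, the kinase that drives mitotic entry, was at −2.75, −2.80 and −2.82 in knockout against −3.33, −3.45 and −3.58 in dflox hearts at 2 months, and at −0.97, −2.40 and −1.41 in knockout against −1.20, −2.30 and −1.45 in dflox hearts at 1 month. Its age difference was −1.20 in knockout hearts (adjusted p = 0.175) and −1.80 in dflox hearts (adjusted p = 0.0531). On the dimmer Cdk1 probe shown above, which was well above background on 10 arrays, the age differences were 0.11 in knockout against 0.73 in dflox hearts, so the direction for Cdk1 rests on the brighter probe. The same held for Ect2, which acts in cytokinesis: its brighter probe gave −1.40 in knockout hearts and −1.58 in dflox hearts, and its dimmer probe, well above background on 8 arrays, 0.23 and 0.09. Top2a, which untangles replicated DNA, was at −4.96, −4.48 and −3.84 in knockout against −5.05, −5.03 and −5.26 in dflox hearts at 2 months, and at −2.68, −4.31 and −3.06 in knockout against −2.87, −3.84 and −3.11 in dflox hearts at 1 month. The ages differed by −1.08 in knockout hearts, where they overlapped, and by −1.84 in dflox hearts (SE 0.421, adjusted p = 0.0801).

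A pair of mitotic genes did not follow, and both encode centromere proteins. Cenpf, a kinetochore protein gene, differed by 0.24 in knockout against 0.28 in dflox hearts, and its dimmer probe by 0.46 and 0.51 in the same order. Cenpa, the centromeric histone, differed by −0.02 in knockout against 0.48 in dflox hearts (SE 0.205, adjusted p = 0.325 in dflox). Cenpe, a kinesin of the kinetochore, gave −1.22 in knockout against −1.65 in dflox hearts. Of the other mitotic genes, 28 were below −1 in dflox hearts, Ccnb1 and Kif11 among them, and Ube2c was at −0.94.

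Replication genes were also lower with age, by smaller amounts. The median difference of the 12 was −0.44 in knockout hearts, with 11 of 12 below 0, and −0.60 in dflox hearts, with 12 of 12 below 0, and 0 of 12 were called in either. A difference below −1 was reached by 18 of 31 mitotic genes in knockout hearts and 28 of 31 in dflox hearts, and by 0 of 12 replication genes in either genotype. By heart, mitotic genes averaged 0.46, 0.37 and 0.39 below their own means in knockout hearts at 2 months, and replication genes 0.08, 0.14 and 0.19 below. In dflox hearts at 2 months the mitotic genes averaged 0.83, 0.60 and 0.92 below and the replication genes 0.38, 0.38 and 0.34 below. The ages did not overlap for 23 of 43 members in knockout hearts, lower at 2 months (10.8% of all genes were lower without overlap), and for 37 of 43 in dflox hearts (8.62% of all genes). Of these, 22 and 27 were mitotic genes, and 1 and 10 were replication genes. The 22 include Ccnb1 and the 27 include Kif11. Of the mitotic genes below −1, the 18 in knockout hearts include Ccnb1 and the 28 in dflox hearts include both Ccnb1 and Kif11. Because both passed the filter only through the 1-month groups, their place in these counts is no support for a fall.

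Among the helicase subunits, none of which was called with age, Mcm2 gave 0.12 in knockout hearts, the 1 replication gene above 0 there, and −0.56 in dflox hearts. Mcm5 gave −0.28 in knockout against −0.97 in dflox hearts; the dflox value was the lowest of the list, while Mcm4 gave −0.12 and −0.37, Mcm7 −0.18 and −0.43, Mcm6 −0.44 and −0.39, and Mcm3 −0.44 and −0.56 in the same order. Pcna was at 2.90, 2.76 and 2.62 in knockout against 2.87, 2.97 and 2.75 in dflox hearts at 2 months, and at 3.04, 2.82 and 2.98 in knockout against 3.18, 2.82 and 3.03 in dflox hearts at 1 month. Its 4 groups overlapped, with age differences of −0.19 in knockout against −0.15 in dflox hearts (SE 0.125 each). The nucleotide-synthesis genes stood lower: Tyms differed by −0.93 in knockout against −0.85 in dflox hearts, and Tk1 by −0.76 and −0.81. Rrm2, a subunit of ribonucleotide reductase, was at −2.99, −3.35 and −2.78 in knockout against −3.50, −3.50 and −3.41 in dflox hearts at 2 months, and at −2.37, −2.86 and −2.35 in knockout against −2.29, −3.16 and −2.23 in dflox hearts at 1 month. It differed by −0.51 in knockout against −0.91 in dflox hearts (SE 0.252, adjusted p = 0.453 and 0.14). Of the origin-loading genes, Cdt1 gave −0.47 and −0.80 and Cdc6 −0.46 and −0.63.

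Age differences were also set beside the CHR matches within the mitotic list. In dflox hearts the median difference was −1.54 over 20 mitotic genes with a CHR match (range −2.09 to 0.48). It was −1.52 over 6 without one (range −1.85 to −1.17). The value of −2.09 is that of Kif11, which passed the filter only through the 1-month groups, as did Ccnb1 among the 6.

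Single hearts weighed on the age comparisons. At 1 month, replicate 2 was the lowest heart of both genotypes for both lists: the mitotic genes averaged 0.00 in knockout replicate 2 against 1.08 and 0.77 in both other knockout hearts, and 0.14 in dflox replicate 2 against 0.92 and 0.66 in the other dflox hearts. The erythroid markers averaged −0.87 in knockout replicate 2 against 0.82 and 0.60 in both other knockout hearts, and 0.19 in dflox replicate 2 against −0.02 and 0.46, and their part in this was not tested. Without knockout 1-month replicate 2, 6 members were called in knockout hearts. In dflox hearts 0 members were called without dflox 1-month replicate 1 or 3 or dflox 2-month replicate 2 or 3, 1 without dflox 2-month replicate 1 or knockout 1-month replicate 3, 2 without knockout 2-month replicate 1 or 2, 3 without knockout 2-month replicate 3, 11 without knockout 1-month replicate 1, 12 without dflox 1-month replicate 2 and 20 without knockout 1-month replicate 2. With slide as a fixed block, and with place on the slide as a covariate, 0 members were called in dflox hearts. With the slide block the 6 genes had differences of −1.61 to −1.99. Both ages of dflox share slide 1 only, and within it the 31 mitotic genes were all below 0, with a median of −1.92. Both ages of knockout hearts share each slide, where the mitotic medians were −0.43 on slide 1, −1.26 on slide 2 and −1.5 on slide 3.
Markers of other heart cells also differed by age. Of 9 macrophage markers 0 were above 0 in either genotype, with medians of −0.18 in knockout hearts and −0.20 in dflox hearts. Fibroblast markers were above 0 in 2 of 7 cases in knockout hearts (median −0.07) and 0 of 7 in dflox hearts (median −0.35), and endothelial markers in 3 of 7 (median −0.06) and 1 of 7 (median −0.24). The 4 B cell markers that passed the filter were above 0 in both genotypes, with medians of 0.89 in knockout hearts and 0.84 in dflox hearts. The part of these cells in the result was not tested.

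**Figure D3:**
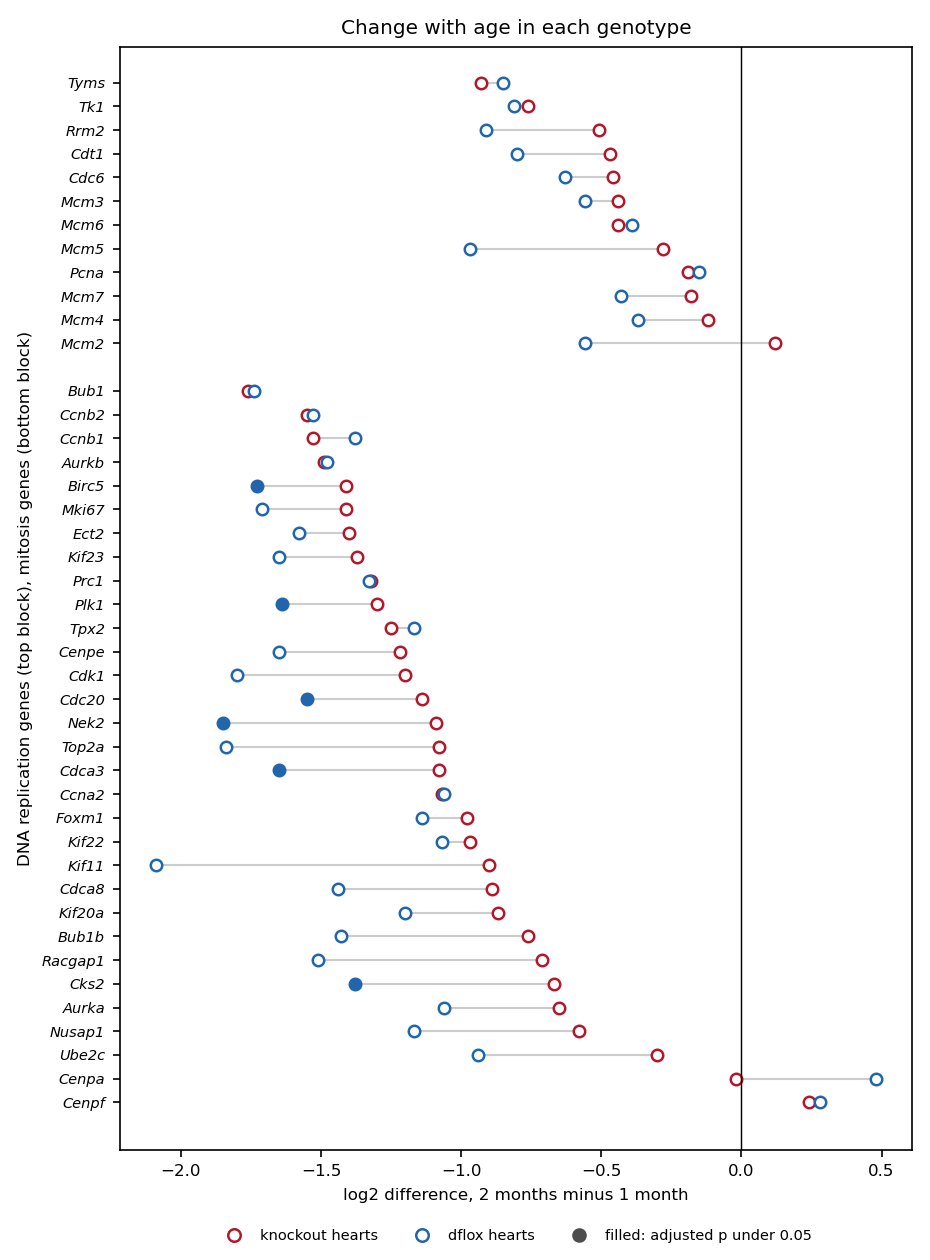
Log2 difference, 2 months minus 1 month (x axis), of each member in knockout hearts (red) and dflox hearts (blue), with replication genes in the top block and mitotic genes in the bottom block; filled circles are called genes. The filled circles are 6 mitotic genes in dflox hearts, and the blue circle lies left of the red one in 23 of 31 mitotic and 9 of 12 replication genes.

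At 2 months 2 members rose in knockout hearts, Mcm2 and Ube2c, and no member fell. The 201 genes called higher were 1.10% of all genes tested. Mcm2, a subunit of the MCM helicase, was at −0.03, −0.27 and −0.13 in knockout against −1.12, −1.04 and −1.03 in dflox hearts at 2 months, and at −0.12, −0.46 and −0.20 in knockout against −0.42, −0.80 and −0.31 in dflox hearts at 1 month. Its 2-month dflox hearts were the lowest of the 12. The genotypes overlapped at 1 month. The 2-month means were −0.14 ± 0.124 in knockout against −1.07 ± 0.0518 in dflox hearts (SD, n = 3 each), a difference of 0.92 (SE 0.145, 1.89-fold higher, limma adjusted p = 0.00913).

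Ube2c, the ubiquitin-conjugating enzyme of the anaphase-promoting complex, was at −0.86, −1.06 and −0.97 in knockout against −2.14, −1.98 and −2.24 in dflox hearts at 2 months, and at −0.17, −1.26 and −0.54 in knockout against −1.13, −1.57 and −0.83 in dflox hearts at 1 month. The genotypes were separate at 2 months and overlapped at 1 month. The 2-month difference was 1.16 (SE 0.259, 2.24-fold higher, adjusted p = 0.0486). Next in order came Cks2 at 1.01 (SE 0.253, adjusted p = 0.0782), Mcm5 at 0.75 (SE 0.237, adjusted p = 0.165) and Racgap1, which helps trigger cytokinesis, at 0.91 (SE 0.289, adjusted p = 0.169). For Cks2 the dimmer probe gave 0.55.

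**Figure D4:**
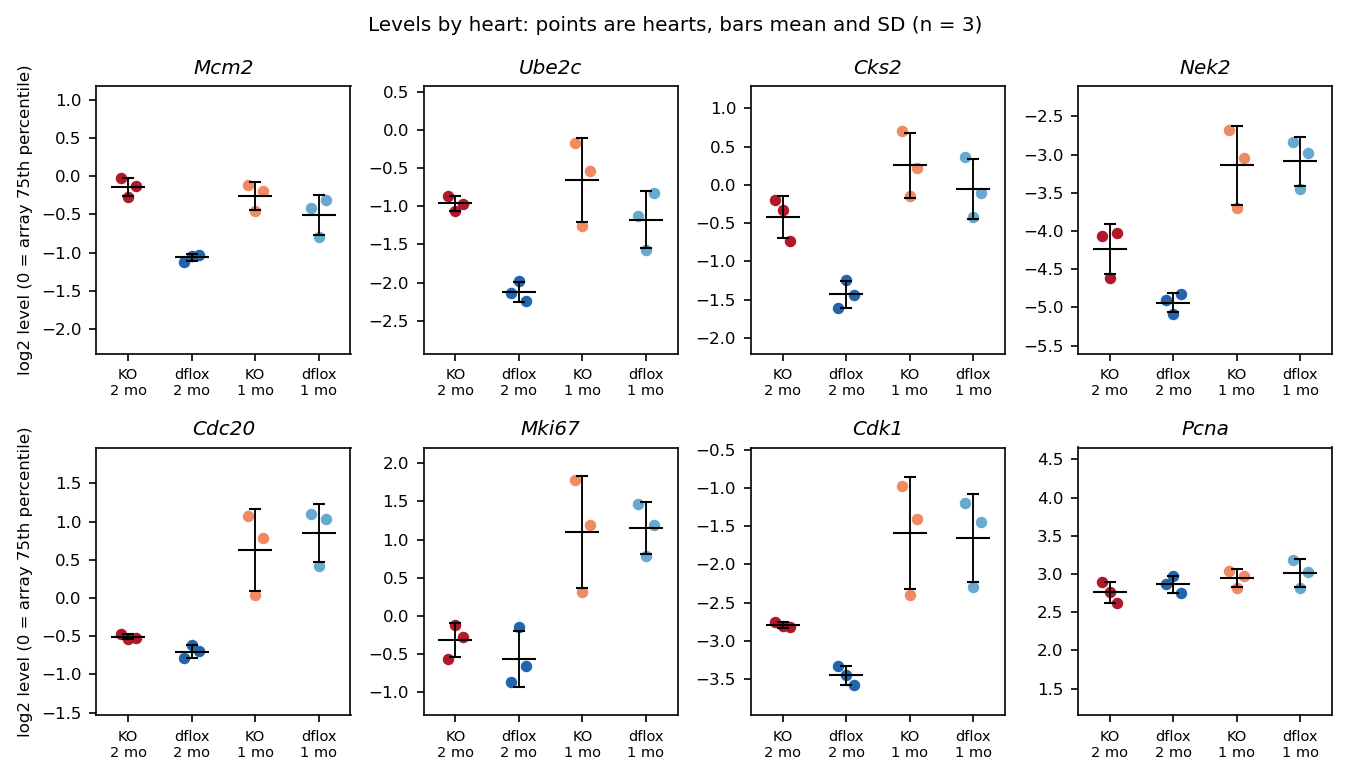
Log2 level (0 is the array's 75th percentile) of 8 members in each heart, with KO for knockout; points are hearts and bars the mean with SD of 3 hearts, on y axes of equal length. Mcm2 and Ube2c are lowest in the 2-month dflox hearts, at −1.12 to −1.03 and −2.24 to −1.98, whereas Cdc20 and Mki67 differ mainly by age and the 4 groups overlap for Pcna.

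Most other mitotic members had differences above 0 at 2 months without passing. Of the 31, 26 were above 0 with a median of 0.24, and of the 12 replication genes 7 were above 0 with a median of 0.22, beside a median of −0.10 and 37.0% above 0 over all genes. The genotypes did not overlap, with knockout higher, for 13 mitotic and 4 replication genes, together 17 of 43, where 6.58% of all genes were higher without overlap, and for none was knockout lower without overlap. Kif11, the spindle motor, had the largest estimate (1.21), but its signal was well above background in 2 of 3 knockout and 1 of 3 dflox hearts at 2 months and its SE was 0.661. Cdk1 gave 0.66 on its brighter and −0.83 on its dimmer probe, and the probes of Ccnb1, Cenpe and Ect2 likewise disagreed in sign. Top2a gave 0.69 (adjusted p = 0.436), Rrm2 0.43 (adjusted p = 0.422), Mki67 0.24 (adjusted p = 0.728) and Pcna −0.10 (adjusted p = 0.675). The 9 macrophage markers were above 0 in 9 of 9 cases at 2 months, with a median of 0.26, and their part in the members' differences was not tested.

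The call on Mcm2 held in each of the 12 fits that left out 1 heart, and the call on Ube2c in 3 of them, so that 1 member was called without any one of the 2-month hearts, dflox 1-month replicate 1 or 3, or knockout 1-month replicate 3. Within the slides that held both genotypes at 2 months, Mcm2 differed by 0.99 on slide 1 and 0.76 on slide 3 and Ube2c by 1.18 and 1.05. With slide as a fixed block the differences were 0.92 for Mcm2 (adjusted p = 0.0343) and 1.19 for Ube2c (adjusted p = 0.0824, or 0.0997 with place as a covariate), and with only the 2 groups compared Ube2c was called and Mcm2 was not (adjusted p = 0.052).

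At 1 month limma called 0 of the 43 members, against 0.980% of all genes, and 0 had an unadjusted p under 0.05. The median was 0.02 over mitotic and −0.02 over replication genes, beside 0.00 over all genes. Mcm2 differed by 0.25 (SE 0.145) and Ube2c by 0.52 (SE 0.259, adjusted p = 0.619). These medians averaged slides of opposite sign, with the lowest heart of each genotype on a different slide. On slide 1, which held knockout replicate 2, 1 of 31 mitotic genes was above 0 with a median of −1.04. On slide 2, which held dflox replicate 2, all 31 were above 0 with a median of 0.41.

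Averaged over both ages, Mcm2 was higher in knockout hearts by 0.59 (SE 0.103, adjusted p = 0.00915) and Ube2c by 0.84 (SE 0.183, adjusted p = 0.0284). These were 2 of 43 members, against 2.25% of all genes called higher. With slide as a fixed block both stayed called (adjusted p = 0.0199 for Mcm2 and 0.0354 for Ube2c). Both calls were lost with place as a covariate (0.62, adjusted p = 0.114 for Mcm2, and 0.85, adjusted p = 0.238 for Ube2c). The interaction of genotype and age was called for 0 members and for 0% of all genes. The largest evidence among members was that of Mcm2, at 0.67 (SE 0.206, unadjusted p = 0.00818, adjusted p = 0.934), the 1 member with an unadjusted p under 0.05, while 644 of all genes, or 3.53%, stood there. The mitotic genes had a median of 0.33 in this contrast and the replication genes one of 0.21, beside −0.08 over all genes. The age comparison in dflox hearts and the genotype comparison at 2 months share the 2-month dflox hearts, so that a low value there enters both, and the values of the members are given side by side for that reason: Mcm2 gave −0.56 with age in dflox hearts and 0.92 for genotype, Ube2c −0.94 and 1.16, and Cks2 −1.38 and 1.01.

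**Figure D5:**
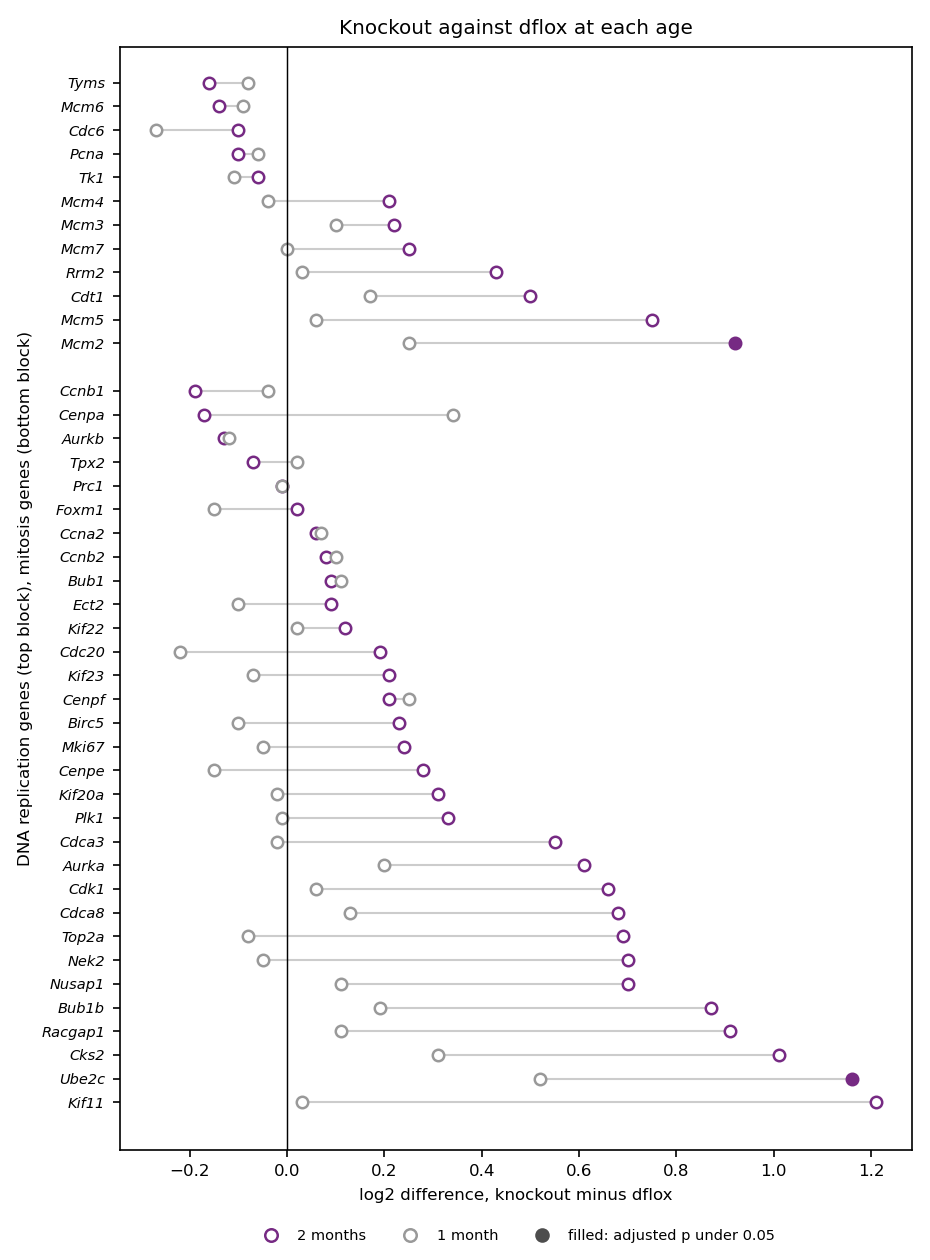
Log2 difference, knockout minus dflox (x axis), of each member at 2 months (purple) and 1 month (grey), with replication genes in the top block and mitotic genes in the bottom block; filled circles are called genes. Mcm2 and Ube2c are filled at 2 months, 26 of 31 mitotic genes lie above 0 at 2 months, and no grey circle is filled.

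Other genes of the same pathways were counted from lists of their own. Of 49 further mitotic genes tested, 1 rose at 2 months and none fell, with 34 above 0 and a median of 0.14. That gene was Spc25, a kinetochore subunit, at −2.00, −2.11 and −1.86 in knockout against −3.69, −3.36 and −4.09 in dflox hearts, a difference of 1.72 (SE 0.262, adjusted p = 0.00735). Its 1-month hearts were at −1.57, −2.20 and −1.82 in knockout against −2.00, −2.91 and −2.18 in dflox, and overlapped. With age 45 of 49 were below 0 in knockout hearts (median −0.67) and 46 of 49 in dflox hearts (median −0.87), and 0 were called in either, with 26 and 33 at an unadjusted p under 0.05.

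Of 47 further replication and repair genes, 1 fell at 2 months, and the median was 0.05. Gmnn encodes geminin, which inhibits Cdt1, and it fell in knockout hearts: it was at 4.24, 4.06 and 3.82 in knockout against 4.91, 5.26 and 4.59 in dflox hearts at 2 months, a difference of −0.87 (SE 0.18, adjusted p = 0.0348). Its 1-month levels of 3.75, 3.88 and 3.89 in knockout against 4.66, 4.82 and 4.40 in dflox hearts were also separate. Rfc3, a clamp-loader subunit, was called in the averaged comparison at 0.33 (SE 0.0739, adjusted p = 0.0331, or 0.0434 with slide as a block). The call was lost with place as a covariate (0.27, adjusted p = 0.35), and Rfc3 was called at neither age alone. The 47 genes had age medians of −0.25 in knockout against −0.22 in dflox hearts. Gmnn was not called at 2 months with slide as a block (adjusted p = 0.0728) or with place as a covariate (adjusted p = 0.0536).

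Upstream of replication, Ccnd2, a D-type cyclin that starts the cycle with Cdk4 or Cdk6, rose in knockout hearts, with a call at 1 month that did not outlast a slide or place term. It was at 4.77, 4.77 and 4.69 in knockout against 3.94, 3.87 and 3.65 in dflox hearts at 2 months, and at 4.84, 4.75 and 4.75 in knockout against 4.22, 4.06 and 3.94 in dflox hearts at 1 month. The differences were 0.92 at 2 months (SE 0.108, adjusted p = 0.0019) and 0.71 at 1 month (SE 0.108, adjusted p = 0.0132, or 0.0512 with slide as a block and 0.401 with place as a covariate, where the difference was 0.58), and 3 probes gave the same direction. Cdk6 fell with age in knockout hearts by 0.80 (SE 0.128, adjusted p = 0.0355, or 0.0547 with slide as a block and 0.0848 with place as a covariate). Its age difference in dflox hearts was close to this, at −0.68 (SE 0.128, adjusted p = 0.0509). The interaction of genotype and age was −0.12 (SE 0.181, adjusted p = 0.936). Other Cdk6 probes gave −0.49 and −0.55 in knockout against −0.55 and −0.15 in dflox hearts. Ccnd2 and Cdk6 were the genes called among 15 cyclins and kinases of that stage.

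Cell cycle inhibitors and stress genes were tested alongside, 16 in number. Cdkn1a, which encodes the inhibitor p21, was at 0.46, 0.98 and 1.29 in knockout against −0.69, −0.50 and −0.76 in dflox hearts at 2 months, and at 0.59, 0.73 and 0.42 in knockout against −0.43, −0.03 and −0.34 in dflox hearts at 1 month. It rose by 1.56 at 2 months (SE 0.198, adjusted p = 0.00282). At 1 month the difference was 0.85 and was not called (adjusted p = 0.0958), although the genotypes were separate at both ages. Gadd45a, a growth arrest and DNA damage gene, rose by 0.85 at 1 month (SE 0.105, adjusted p = 0.00463, or 0.0569 with place as a covariate), with 2.39, 2.42 and 2.48 in knockout against 1.6, 1.57 and 1.57 in dflox hearts. At 2 months it was at 1.99, 2.22 and 2.38 in knockout against 1.78, 1.85 and 1.78 in dflox hearts. That difference of 0.39 was not called (adjusted p = 0.104). Among 20 E2F, RB and DREAM genes, Tfdp2, a partner of E2F proteins in DNA binding, fell at 2 months by 1.45 (SE 0.233, adjusted p = 0.0099). Its levels were 0.13, 0.13 and −0.43 in knockout against 1.15, 1.81 and 1.22 in dflox hearts, and its other probes gave −1.20 and −0.57. Tfdp2 levels were also separate at 1 month, at 0.60, 0.36 and 0.40 in knockout against 1.33, 1.67 and 0.99 in dflox hearts. That difference of −0.87 was not called (adjusted p = 0.152), and the other probes gave −0.90 and −0.54. The remaining cyclins, kinases, inhibitors, stress genes and E2F, RB and DREAM genes were not called at 2 months.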

How the data were processed

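RNA of 12 hearts was hybridised as Cy3-labelled cRNA, 500 ng of RNA per sample per the labels' protocols, to Agilent arrays with 43379 transcript and 1639 control spots. The authors deposited intensity values as scanned; the Feature Extraction software was version 9.5 according to the labels and 9.5.3.1 in the headers. Per the file headers, spatial and multiplicative detrending were switched on for the processed signal. Control and outlier spots were left out, log2 signals were set to each array's 75th percentile (465 to 1068), and spots of a probe were averaged. A probe was kept (26979 of 41174 were) where some group had it well above background in all 3 hearts. RefSeq accessions named 22951 probes, other accessions 131, older symbols 3073 and current names 6582; 8437 kept the file's name. The brightest probe represented a gene. The number of hearts limits the precision.

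A model with 4 group means was fitted in limma 3.58.1 under R 4.3.3, two-sided, over 12 arrays, with Benjamini-Hochberg adjustment over all 18257 genes within a comparison. The code was tested on simulated data. Exact permutation of 3 against 3 hearts cannot give a p under 0.1, so it was not used. Lists are described by counts and medians only. Called members and Mki67, Top2a, Cdk1, Mcm2, Pcna and Rrm2 are given in every heart; genes that are not members come from fixed lists, called ones only, at most 5 per list. The members and lists were chosen with earlier results of these data known. Alternatives were quantile or median scaling, normexp background correction (offset 50), other filters on dim probes, averaged probes, slide or place terms, slides or hearts left out, the groups compared alone, a replicate block and trended variances. Promoter sequences are from RefSeq, GRCm38.p6; no genome of build mm7 was used. A result of the further replication and repair genes is not reported here.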

Additional observations from a re-analysis of the deposited data

How the results depend on the processing

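Direction held for each called member in its comparison under all alternatives run. Mcm2 at 2 months stayed called in 23 of 27 fits (0.82 to 1.05) and lost the call without any of the 3 slides and with only the groups compared; Ube2c stayed called in 10 of 27 (0.99 to 1.28). The genes called with age in dflox hearts stayed so in 9 (Cdca3, Cks2, Plk1), 10 (Birc5), 14 (Cdc20) or 15 (Nek2) of 27.

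At 2 months, 1 member was called with no filter, averaged probes, slide as a fixed block, place as a covariate, only the groups compared or the replicate block, 0 without slide 1, 2 or 3, 3 (Cks2 added) with median centring or trended variances, and 1 to 2 with 1 heart left out. Averaged over both ages, 1 was called with no filter, 0 with place as a covariate or without slide 1, 2 or 3, 3 (again with Cks2) with median centring or trended variances, and 1 to 2 with 1 heart left out. With age in knockout hearts, 2 were called with the replicate block, 1 with trended variances, and 0 to 6 with 1 heart left out. With age in dflox hearts, 12 were called with quantile scaling, 17 with median centring, 3 with normexp, 14 with signals above background on all arrays, 15 with trended variances, 5 with the replicate block, and 0 with no filter, slide as a fixed block, place as a covariate, only the groups compared, or without slide 1, 2 or 3; leaving out 1 heart gave 0 to 20. Over all genes, that comparison had 101 calls, and 0 without slide 1 or 2, 26 without slide 3 and 0 with only the groups compared.

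The medians moved with 4 arrays left out. Without slide 1 they were 0.52 (mitotic) and 0.26 (replication) at 1 month and −0.20 and −0.08 for the difference of the genotype effects; without slide 2 they were −0.43 and −0.26 at 1 month, 0.79 and 0.44 for that difference, and −1.85 and −0.83 with age in dflox hearts. Normexp gave −0.85 for the mitotic genes with age in dflox hearts. With 1 heart left out, the mitotic median ran from −1.68 to −1.29 with age in dflox hearts and from 0.19 to 0.43 at 2 months. Median centring moved the median of all genes to −0.08 with age in dflox hearts and to 0.02 at 2 months, where the mitotic median was 0.36. The cause of these shifts was not tested.

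Replicate numbers are shared between groups. Over all genes, hearts with the same number did not deviate together in a uniform way (correlations −0.49 to 0.55). Among the members, however, replicate 2 was the lowest heart of both 1-month groups, with mitotic means of 0.00 in knockout and 0.14 in dflox hearts. Whether the numbers mark a pairing or a batch was therefore not settled, and the replicate block is given only as an alternative. With 3 hearts per group, and at most 1 probe for many members, small differences cannot be told from none, and the SE of a difference was largest for Kif11 (0.661) and Ccnb1 (0.504), both of which were dim at 2 months.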
